A study of Mus musculus with 20 samples.

Results

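Mixed carcinomas are skin tumors in which differentiated and undifferentiated areas lie side by side. The labels give this histology to 4 of the 20 samples of the series, and these 4 tumors were chosen by that label alone. They are compared here with the 5 samples of normal skin and, to show where they differ from other grades, with 6 poorly differentiated carcinomas and 5 undifferentiated or spindle cell carcinomas. All mice were FVB. The tumors arose in mice that carry k14Cre with p53loxP/loxP (Trp53ΔEC) or with p53loxP/loxP and pRbloxP/loxP (RbΔEC; Trp53ΔEC), where the Cre recombinase acts in stratified epithelia, so the stroma of a tumor keeps both genes. Of the mixed tumors, 3 were Trp53ΔEC (tumors 3, 5 and 7) and 1 was RbΔEC; Trp53ΔEC (tumor 4, called RbΔEC tumor 4 below), so the second genotype cannot be told apart from that single tumor. The poorly differentiated group held 2 Trp53ΔEC and 4 RbΔEC; Trp53ΔEC tumors, and the undifferentiated/spindle group 2 and 3. Normal skin was wild type, with no Cre or floxed allele, and came from mice of 2 months, whereas no age is given for tumor-bearing mice, so that effects of age cannot be told apart from those of the tumor. Whole tissue RNA was hybridized to 1 Affymetrix MOE430 2.0 array per sample, and levels are log2 units after RMA normalization, so that a difference of 1 is a 2-fold change.

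The epidermis renews itself from a basal layer, where keratinocytes make keratins 5 and 14 and hold to the basement membrane, and cells that leave this layer switch to keratins 1 and 10 and then build the cornified envelope from proteins such as involucrin and loricrin. Squamous carcinomas keep part of this program, and they lose it as they become undifferentiated or take a spindle form. The p53 protein arrests the cycle of damaged cells, largely through the inhibitor p21, while pRb holds back the E2F factors that switch on genes of DNA replication and mitosis.

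Promoters of 2 gene groups are shown whose members moved together in the mixed tumors, up for mitosis and down for epidermal differentiation. Skeletal muscle genes, which also fell together, were searched in the same way, and their promoters are not shown. The windows run from 170 bases before to 30 after the RefSeq transcription start (mouse build GRCm38.p6). In the mitotic genes Aurka (chr2:172370541-172370740, minus strand), Ccnb2 (chr9:70421525-70421724, minus strand) and Kif11 (chr19:37376212-37376411, plus strand), capitals mark the CHR letters TTTGAA or TTTAAA and the CCAAT box, searched on both strands. In the differentiation genes Krtdap (chr7:30787735-30787934, plus strand) and Ivl (chr3:92573706-92573905, minus strand), capitals mark TGAGTCA on either strand, the letters of an AP-1 site.
Aurka: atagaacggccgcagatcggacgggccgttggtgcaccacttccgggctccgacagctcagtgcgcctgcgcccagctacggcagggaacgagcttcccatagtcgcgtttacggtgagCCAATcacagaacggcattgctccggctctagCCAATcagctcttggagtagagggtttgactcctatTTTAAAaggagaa
Ccnb2: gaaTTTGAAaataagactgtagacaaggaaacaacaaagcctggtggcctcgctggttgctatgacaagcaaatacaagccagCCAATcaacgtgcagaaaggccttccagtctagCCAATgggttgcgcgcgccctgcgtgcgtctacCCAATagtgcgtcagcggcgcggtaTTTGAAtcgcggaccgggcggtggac
Kif11: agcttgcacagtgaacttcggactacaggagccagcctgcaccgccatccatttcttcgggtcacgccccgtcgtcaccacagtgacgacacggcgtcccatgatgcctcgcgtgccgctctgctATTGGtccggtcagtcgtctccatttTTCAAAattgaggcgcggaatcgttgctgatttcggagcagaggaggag
Krtdap: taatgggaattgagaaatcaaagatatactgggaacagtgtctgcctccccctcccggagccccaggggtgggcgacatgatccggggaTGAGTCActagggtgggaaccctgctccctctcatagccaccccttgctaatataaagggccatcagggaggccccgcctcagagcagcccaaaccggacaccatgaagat
Ivl: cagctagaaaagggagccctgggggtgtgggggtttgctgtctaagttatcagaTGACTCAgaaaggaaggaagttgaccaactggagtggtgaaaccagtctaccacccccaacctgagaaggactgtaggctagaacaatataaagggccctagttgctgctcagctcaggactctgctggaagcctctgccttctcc
TTTGAA or TTTAAA stood in 22 of 31 windows of the mitosis genes (71.0%) and in 18.6% of all 32851 windows, and CCAAT in 71.0% against 29.0%. Both stood together in 58.1% of the mitosis windows and 5.5% of all. TGAGTCA stood in 8 of 26 windows of the differentiation genes (30.8%), in none of the 31 mitosis windows and in 3.7% of all. In the 29 windows of skeletal muscle genes, TTTGAA or TTTAAA stood in 6.9%, CCAAT in 27.6%, both in 0.0% and TGAGTCA in 6.9%. These matches describe letters in a window and not bound sites. Sequences were picked for display among called genes with a single window that holds the marked letters. Marks in them therefore do not show how common the letters are. The 5 genes shown were among those that changed: against skin, Aurka was higher by 3.53, Ccnb2 by 3.18 and Kif11 by 3.18, whereas Krtdap and Ivl differed by −7.44 and −5.66 (log2 differences, limma adjusted p = 3.08e-05, 9.69e-06, 9.85e-07, 0.000274 and 9.26e-06).

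Array medians lay between 5.59 and 5.63 in skin and between 5.71 and 5.73 in the mixed tumors, and the Actb difference between 3′ and 5′ probesets, which reads RNA degradation, was 0.50 to 1.19 in skin and 0.38 to 0.66 in the mixed tumors. Rb1 was 7.85 in tumor 3, 8.26 in tumor 5, 8.46 in tumor 7 and 6.55 in RbΔEC tumor 4, and 8.95, 9.10, 9.26, 8.95 and 9.13 in the 5 skin samples. Every mixed tumor lay below every skin sample, with the lowest level in the tumor that lacks pRb in its epithelium (log2 difference −1.30, SE 0.34, adjusted p = 0.0147). Whether the Rb1 probeset lies in the deleted exons was not checked, and Trp53 was not analysed here.

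The mixed tumors differed from normal skin in a large share of the genes on the array. Of 18193 genes, 3648 were higher (20.1%) and 3650 lower (20.1%), 40.1% in all, at a limma adjusted p under 0.05, and the median difference over all genes was −0.01. In 3166 genes (17.4%) all 4 mixed tumors lay above all 5 skin samples, and in 3235 (17.8%) all lay below. With each array centred on its median, the median of all genes moved from −0.01 to −0.12 and the calls became 3060 higher and 4659 lower (39.6% higher). In every comparison of these bulk samples, fewer cells of a type and less RNA per cell cannot be told apart.

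Genes of cell division rose together. All 35 measured genes of mitosis and chromosome segregation were higher than in skin, with a median log2 difference of 2.91 against −0.01 over all genes and 20.1% of genes called higher. Bub1, a kinase of the spindle checkpoint, was 8.91 in tumor 3, 8.86 in tumor 5, 9.83 in tumor 7 and 9.29 in RbΔEC tumor 4, and 4.66, 4.39, 4.42, 5.06 and 5.14 in skin. The tumors lay within 1 unit of each other and far above all skin samples (log2 difference 4.49, SE 0.25, adjusted p = 2.09e-06). The cytokinesis genes Cep55 (3.65) and Kif20a (3.49) and the mitotic kinase gene Aurka followed. Of 31 DNA replication genes 30 rose (median 2.34), led by Cdc6 (3.64), which loads the replicative helicase, and Rrm2 (3.08), a subunit of ribonucleotide reductase. Of 14 genes of DNA repair and the damage checkpoint 13 rose (median 2.04), among them Rad51ap1 (3.58), Chek1 (3.35), Brca1 (3.22) and Exo1 (3.04). The 4 mixed tumors lay close together, with a mean level over the mitosis genes of 8.96, 8.94, 9.43 and 9.41 in tumors 3, 5 and 7 and RbΔEC tumor 4, and of 6.37 to 6.70 in skin.

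Mitosis genes were called higher than in poorly differentiated tumors about as often as all genes. None was called lower there, and none was called in either direction against undifferentiated/spindle tumors. Against poorly differentiated tumors 4 mitosis genes were higher and none lower (median 0.36), where 10.2% of all genes were higher and 9.37% lower. On leaving out tumor 7, 2 were higher, and 1 was with a per-gene unequal-variance t-test. The paper's methods name a t-test and do not state how it treats the variance. Of 31 replication genes 1 was higher than in each other grade, and 5 and 4 were with genotype as a covariate. Of 14 repair genes 2 were higher than in poorly differentiated tumors and none without dim genes. Against undifferentiated/spindle tumors no mitosis gene passed limma in either direction (median 0.05), where 6.41% of all genes were higher and 7.7% lower. At an unadjusted p under 0.05, 2 mitosis genes were higher and none was lower.

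Cell cycle inhibitors moved apart from each other. Cdkn2a, which encodes p16Ink4a and p19Arf, was 9.50 in tumor 3, 6.22 in tumor 5, 8.40 in tumor 7 and 9.59 in RbΔEC tumor 4, and 4.01, 4.19, 4.23, 4.19 and 4.29 in skin. It was lowest in tumor 5, and no tumor overlapped skin (log2 difference 4.24, SE 0.61, adjusted p = 0.000562). Its neighbour Cdkn2b rose by 2.26 and the cyclin gene Ccne2 by 2.51. Of 18 genes of G1 control, a list that includes the targeted gene Rb1, 10 rose, 2 fell and 6 did not pass. Rb1 was among those that fell, and 20.1% of all genes were called each way. Cdkn1a, which encodes p21 and is a main p53 target, was 8.87 in tumor 3, 7.49 in tumor 5, 8.30 in tumor 7 and 9.71 in RbΔEC tumor 4, and 11.04, 11.09, 11.12, 11.21 and 11.20 in skin. All mixed tumors lay below all skin samples and below the poorly differentiated tumors, which ranged from 10.53 to 12.16 (log2 difference −2.54, SE 0.37, adjusted p = 0.000620 against skin and −2.76, SE 0.42, adjusted p = 0.000546 against poorly differentiated tumors). Of 20 p53 targets 7 were lower than in skin and 2 higher, against 20.1% of all genes each way, and 4 were higher on leaving out tumor 5. Of these calls the unequal-variance test left 4 falls and 1 rise. Eda2r, an ectodysplasin receptor gene, was lower by 2.68 than in skin, and it was lower than in both other tumor grades (−0.82 and −2.17). The stress gene Gadd45a was among the 2 that rose (2.69).

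Genes of epidermal differentiation were low in the mixed tumors. Of 26 genes of differentiation and the cornified envelope 24 were lower than in skin, none was higher and 2 did not pass, with a median log2 difference of −4.73 where 20.1% of all genes were lower. Krtdap, a marker of the spinous layer, was 5.62 in tumor 3, 5.72 in tumor 5, 9.80 in tumor 7 and 4.10 in RbΔEC tumor 4, and 13.86, 13.67, 13.70, 13.79 and 13.71 in skin. Tumor 7 kept more of it than the other tumors, and all 4 lay below skin (log2 difference −7.44, SE 0.94, adjusted p = 0.000274). Krt77, a keratin of suprabasal epidermis, was likewise highest in tumor 7 (4.68 in tumor 3, 5.24 in tumor 5, 8.73 in tumor 7 and 4.93 in RbΔEC tumor 4), below a skin range of 13.77 to 13.87. Krt1 fell by 6.37 on the log2 scale, Dsc1, a desmosomal cadherin gene of the upper layers, by 6.33 and Dmkn by 6.01.

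Basal keratinocyte genes split the mixed tumors. Krt5 was 12.83 in tumor 3, 10.01 in tumor 5, 10.53 in tumor 7 and 6.05 in RbΔEC tumor 4, and 13.33, 13.34, 13.20, 13.55 and 13.25 in skin. Tumor 3 came close to skin and RbΔEC tumor 4 stood far below, with no overlap with skin (log2 difference −3.48, SE 1.08, adjusted p = 0.0293). This call was lost on leaving out any 1 skin sample, with adjusted p between 0.0555 and 0.0598. Trp63, the p63 factor of stratified epithelia, was 11.35 in tumor 3, 9.78 in tumor 5, 8.85 in tumor 7 and 3.80 in RbΔEC tumor 4 against 11.09 to 11.34 in skin, and did not pass the test (log2 difference −2.76, SE 1.25, adjusted p = 0.109). It passed without tumor 3 (−3.73, adjusted p = 0.0328). The hemidesmosome collagen gene Col17a1 was again highest in tumor 3 and lowest in RbΔEC tumor 4 (10.06 in tumor 3, 9.53 in tumor 5, 8.03 in tumor 7 and 3.98 in RbΔEC tumor 4). Of 12 basal and hemidesmosome genes 6 were lower than in skin, where 20.1% of all genes were lower, and 6 did not pass. The unequal-variance test left 1 lower. The mean over these genes was 10.98, 9.49, 9.28 and 6.52 in tumors 3, 5 and 7 and RbΔEC tumor 4, against 11.05 to 11.32 in skin, 10.90 to 11.69 in poorly differentiated and 6.26 to 8.23 in undifferentiated/spindle tumors. The epithelial adhesion genes Cdh1 and Epcam showed the same low RbΔEC tumor 4, at 6.82 and 6.74, while the other mixed tumors lay between 9.55 and 11.20 for Cdh1 and between 10.54 and 13.05 for Epcam. Krt5, Krt14, Trp63, Cdh1 and Epcam belong to the epithelial markers used to check the label. For Krt5, Trp63, Cdh1 and Epcam, tumors 3, 5 and 7 lay above the undifferentiated/spindle range and RbΔEC tumor 4 within it. For Krt14 only tumor 3 (12.02) lay above that range, 4.43 to 11.38. Tumor 5 (10.25), tumor 7 (10.89) and RbΔEC tumor 4 (8.85) lay within it. The mean of the mesenchymal genes in RbΔEC tumor 4 (9.45) lay below the undifferentiated/spindle range, 10.73 to 11.04.

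**Figure D1:**
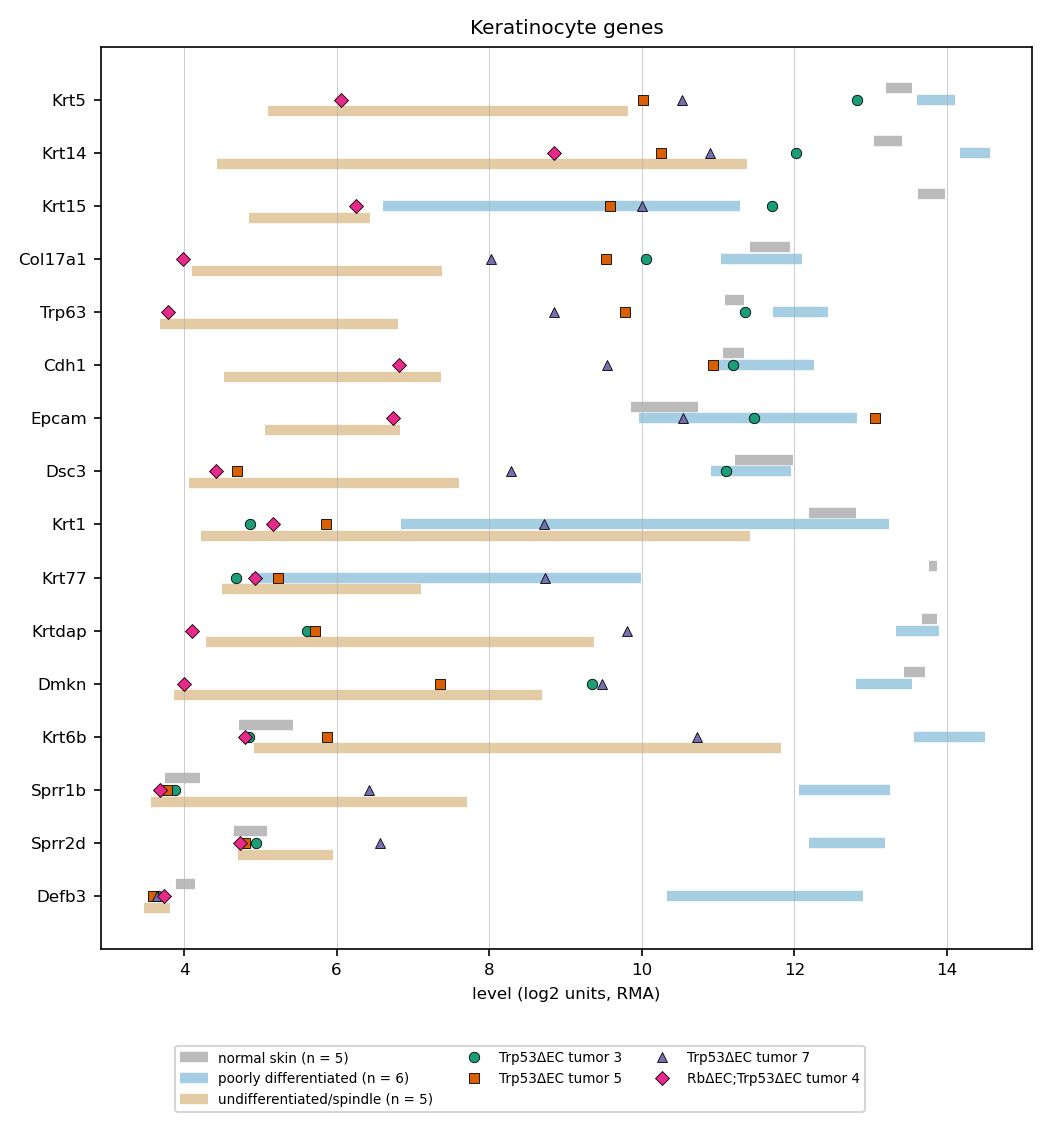
Levels of keratinocyte genes in log2 units (x axis), with 1 symbol for each of the 4 mixed carcinomas and a bar from the lowest to the highest sample of normal skin, poorly differentiated and undifferentiated/spindle tumors. For the basal genes the 4 symbols spread from near the skin bar (tumor 3, Krt5 12.83) to the undifferentiated/spindle bar (RbΔEC tumor 4, Krt5 6.05), whereas for Sprr1b, Sprr2d and Defb3 all 4 lie far below the poorly differentiated bar.

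Stress keratins and wound genes were lower than in the poorly differentiated tumors. Of 13 such genes 12 were lower than in poorly differentiated tumors (median −5.57, where 9.37% of all genes were lower) and none was higher. The unequal-variance test left 5 lower. Sprr1b, a cornified envelope gene that wounded epidermis induces, was 3.88 in tumor 3, 3.78 in tumor 5, 6.42 in tumor 7 and 3.68 in RbΔEC tumor 4, and its lowest, median and highest levels in poorly differentiated tumors were 12.06, 12.53 and 13.26. No mixed tumor approached that range (log2 difference −8.13, SE 0.74, adjusted p = 6.83e-06). The beta-defensin gene Defb3 (−8.18, adjusted p = 1.37e-07), Sprr2f (−7.98), Sprr2h (−7.85), Krt6b (−7.70) and Sprr2d (−7.33) were the other genes with the largest differences, and the Sprr2 genes are close copies whose probesets may share signal. For Krt6b tumor 7 stood at 10.72 with the other mixed tumors between 4.80 and 5.88. Against skin 3 of the 13 were higher and 3 lower. The higher ones, S100a8, Lcn2 and Slpi, were no longer past the test on leaving out RbΔEC tumor 4 or any 1 skin sample, and 1 of them passed without tumor 7. Of the differentiation genes 23 of 26 were also lower than in poorly differentiated tumors (median −4.42, with 15 by the unequal-variance test), and none passed limma against undifferentiated/spindle tumors (median −0.09, with none at an unadjusted p under 0.05).

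Junction genes were higher in most mixed tumors than in undifferentiated/spindle tumors. Of 23 genes of epithelial junctions and their regulators 13 were higher than in undifferentiated/spindle tumors (median 1.92, where 6.41% of all genes were higher) and none was lower. Without tumor 3, without tumor 7 or without the RbΔEC; Trp53ΔEC tumor 5 of the undifferentiated/spindle group, 8 were higher, and with the unequal-variance test 1 was. The mean over the list was 8.71 in tumors 3 and 5, 7.85 in tumor 7 and 6.01 in RbΔEC tumor 4, and this last value lay inside the undifferentiated/spindle range of 5.01 to 6.23. Against poorly differentiated tumors 9 were lower (9.37% of all genes) and none higher, and against skin 10 were lower (20.1% of all genes), 1 was higher (3 without RbΔEC tumor 4) and 12 did not pass. The unequal-variance test left 3 and 4 of these lower. Pkp1, a desmosomal plaque gene, was 10.40 in tumor 3, 10.77 in tumor 5, 9.47 in tumor 7 and 7.34 in RbΔEC tumor 4, below skin by 3.02 and below poorly differentiated tumors by 3.26, but above undifferentiated/spindle tumors by 2.31. Ovol1, a factor that holds cells in the epithelial state, was at 4.45 to 5.97 in the mixed tumors, 7.75 to 8.20 in skin and 8.64 to 9.71 in poorly differentiated tumors, and the mixed levels overlapped those of undifferentiated/spindle tumors, 4.56 to 5.24.

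Genes of other skin tissues were low in the mixed tumors. All 36 skeletal muscle genes were lower than in skin (median −6.50, where 20.1% of all genes were lower), as were all 17 adipocyte genes (median −4.38) and 6 of 7 sebaceous gland genes (median −3.20). Ckm, the muscle creatine kinase, was 5.24 in tumor 3, 7.82 in tumor 5, 7.43 in tumor 7 and 5.01 in RbΔEC tumor 4, and 13.81, 14.04, 13.92, 13.76 and 14.23 in skin. Tumors 5 and 7 kept more than the other pair, and none came near skin (log2 difference −7.58, SE 0.57, adjusted p = 1.20e-05). The myosin gene Myh4 (−7.89), the calcium buffer gene Pvalb (−7.65), the calcium pump gene Atp2a1 (−7.50) and the troponin genes Tnnc2 (−7.41) and Tnnt3 (−7.33) were among the 12 largest falls, with Ckmt2, Casq1 and Pygm. Adipoq, the fat cell hormone adiponectin, was 4.07 in tumor 3, 4.58 in tumor 5, 6.60 in tumor 7 and 3.18 in RbΔEC tumor 4, and 12.29, 12.59, 12.08, 12.41 and 12.76 in skin. Its spread among the tumors was smaller than their distance from skin (log2 difference −7.82, SE 0.57, adjusted p = 1.04e-05). Far2, a wax synthesis gene of the sebaceous gland, fell by 5.69 on the log2 scale. Melanocyte genes were lower for 6 of 11 (Dct −3.47) and hair shaft genes for 8 of 21, and this last count was 5 without tumor 7, RbΔEC tumor 4 or skin sample 2 and 4 with the unequal-variance test.

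Adamts20 and Mia were among the 12 genes that rose most against skin. Adamts20, a secreted metalloprotease, was 9.10 in tumor 3, 7.36 in tumor 5, 11.25 in tumor 7 and 10.84 in RbΔEC tumor 4, and 3.26, 3.24, 3.33, 2.96 and 3.63 in skin. It was also above all 11 other tumors, which ranged from 3.15 to 4.56 (log2 difference 6.35, SE 0.69, adjusted p = 0.000115 against skin, 5.98, SE 0.57, adjusted p = 1.10e-05 against poorly differentiated and 5.89, SE 0.59, adjusted p = 5.71e-05 against undifferentiated/spindle tumors). Mia, a small secreted protein first named in melanoma, was 11.44 in tumor 3, 9.75 in tumor 5, 10.48 in tumor 7 and 9.31 in RbΔEC tumor 4, and 4.98, 5.06, 4.70, 4.59 and 4.77 in skin. The other tumors ranged from 4.16 to 5.95, so that no sample outside the mixed group reached the lowest mixed tumor (log2 difference 5.43, SE 0.38, adjusted p = 7.61e-06 against skin). The matrilin gene Matn4 (5.29), the collagen gene Col11a1 (4.25) and the collagenase gene Mmp13 (5.08) also rose against skin, and Mmp13 was lower than in poorly differentiated tumors (−3.22, adjusted p = 0.0113). Hsd11b2, which inactivates glucocorticoids, was at 5.96 to 11.61 in the mixed tumors and at 4.41 to 5.01 in all other tumors. Nptx1 and the simple epithelial keratin gene Krt18 (highest in tumor 5, at 12.33) completed the 12 largest rises with Sox11, Cdkn2a, Bub1 and Wif1.

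Wif1 binds Wnt ligands outside the cell and blocks them. It was 9.09 in tumor 3, 9.22 in tumor 5, 10.70 in tumor 7 and 10.27 in RbΔEC tumor 4, and 6.15, 4.90, 5.99, 4.99 and 5.92 in skin. The mixed tumors did not overlap skin, the poorly differentiated tumors (4.24 to 7.54) or the undifferentiated/spindle tumors (2.88 to 3.61), and the differences were 4.23, SE 0.41, adjusted p = 5.48e-05 against skin and 6.66, SE 0.53, adjusted p = 1.24e-05 against undifferentiated/spindle tumors. Of 24 Wnt pathway genes 5 were higher and 8 lower than in skin, against 20.1% of all genes each way, and 3 were higher without tumor 7, RbΔEC tumor 4 or skin sample 3. With the unequal-variance test 3 were higher and 4 lower. The ligand gene Wnt10a was lower by 1.67 and the target gene Axin2 by 1.73, which passed only with tumors 3, 5 and 7 and skin samples 2 to 5 all kept. The inhibitor gene Dkk2 was lower than in undifferentiated/spindle tumors (−4.51, adjusted p = 0.000882).

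Genes of the Hedgehog pathway were among those with the widest range over the mixed tumors. In this pathway a ligand relieves the block that the receptor Ptch1 puts on Smo, the Gli factors then act on their targets, and Ptch1, Hhip and Gli1 are themselves such targets. Gli1 had the widest range of all genes, 12.47 in tumor 3, 4.04 in tumor 5, 8.52 in tumor 7 and 13.98 in RbΔEC tumor 4, where skin was 6.35, 6.78, 5.90, 5.75 and 6.71. Tumors 3 and 7 and RbΔEC tumor 4 lay above every skin sample and every other tumor (4.37 to 5.95), and tumor 5 lay below them all (log2 difference 3.45, SE 1.72, adjusted p = 0.140 against skin). Hhip was 11.38 in tumor 3, 4.43 in tumor 5, 11.78 in tumor 7 and 12.47 in RbΔEC tumor 4, and 4.92, 4.68, 5.05, 5.07 and 5.21 in skin, which passed the test (log2 difference 5.03, SE 1.44, adjusted p = 0.0208) but not without tumor 3, tumor 7 or RbΔEC tumor 4 (adjusted p between 0.0517 and 0.0591). Gli2 was 9.89 in tumor 3, 6.14 in tumor 5, 13.97 in tumor 7 and 10.96 in RbΔEC tumor 4 against 8.07 to 8.63 in skin and did not pass. It passed without tumor 5 (3.24, adjusted p = 0.00889), as did Gli1 (5.36, adjusted p = 0.00317).

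The other members of the pathway were chosen after their values were seen. Ptch1 was 13.53 in tumor 3, 8.96 in tumor 5, 12.84 in tumor 7 and 13.80 in RbΔEC tumor 4, and 9.25, 9.58, 9.10, 8.95 and 9.35 in skin, with tumor 5 inside the skin range and the other 3 mixed tumors above all other tumors (log2 difference 3.04, SE 0.87, adjusted p = 0.0208, with adjusted p between 0.0528 and 0.0546 without any 1 of those 3). Smo was modestly higher than in skin (0.92, SE 0.16, adjusted p = 0.00188), and so was the inhibitor gene Sufu (0.99, SE 0.19, adjusted p = 0.00300), which did not pass when the median of its probesets was used (0.48, adjusted p = 0.259). The ligand gene Shh was 5.75 to 6.91 against 4.52 to 5.93 in skin and did not pass (adjusted p = 0.0657), nor did Gli3 (adjusted p = 0.903).

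Igf2, an imprinted growth factor gene, was likewise lowest in tumor 5 and highest in RbΔEC tumor 4. It was 12.98 in tumor 3, 6.85 in tumor 5, 14.20 in tumor 7 and 14.27 in RbΔEC tumor 4, and 7.39, 7.27, 7.74, 7.70 and 7.77 in skin, so that tumor 5 lay below skin and the others far above (log2 difference 4.50, SE 1.36, adjusted p = 0.0260, with adjusted p between 0.0503 and 0.0728 on leaving out 1 of tumors 3 and 7, RbΔEC tumor 4 or skin samples 1 to 4). Sox11, a transcription factor of embryonic tissues, was 10.84 in tumor 3, 5.98 in tumor 5, 10.92 in tumor 7 and 11.70 in RbΔEC tumor 4, and 3.51, 3.57, 3.38, 3.35 and 3.33 in skin. All tumors exceeded skin and tumor 5 was again the lowest (log2 difference 6.43, SE 1.01, adjusted p = 0.000929). The imprinted gene Peg3 was 11.54 in tumor 3, 9.40 in tumor 5, 11.43 in tumor 7 and 13.24 in RbΔEC tumor 4 against 7.60 to 9.61 in skin, with tumor 5 inside the skin range, and it was above all other tumors, 4.60 to 8.31 (5.09, SE 0.81, adjusted p = 0.000665 against poorly differentiated tumors). It differed from skin by 2.41, SE 0.71, adjusted p = 0.0238, a call that did not hold without tumor 7, skin sample 1 or skin sample 2 (adjusted p between 0.0512 and 0.0520). Mest, a further imprinted gene chosen after its values were seen, was higher than skin in every mixed tumor at 9.98 to 10.83 (4.02, SE 0.32, adjusted p = 1.75e-05). Other imprinted genes looked up in the same way were Dlk1 (1.96, limma adjusted p = 0.000379), Igf2r (1.72, limma adjusted p = 0.000818) and Plagl1. Plagl1 did not pass (−1.02, limma adjusted p = 0.529). It was 7.14 in tumor 3, 9.78 in tumor 5, 6.24 in tumor 7 and 13.11 in RbΔEC tumor 4, against 9.60 to 10.46 in skin.

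Aqp5 and Wfdc18, among the 10 genes of widest range, were highest in tumor 5. Aqp5, the water channel of sweat and salivary glands, was 7.03 in tumor 3, 13.26 in tumor 5, 5.86 in tumor 7 and 5.08 in RbΔEC tumor 4, where skin was 5.88 to 6.30 and the poorly differentiated tumors 7.77 to 10.57. Wfdc18, a secreted protein of mammary gland, was at 13.76 in tumor 5 and between 5.62 and 8.65 in the other mixed tumors. Elf5, Sox10, Krt8 and Edar, chosen after their values were seen, also peaked in tumor 5, at 11.15, 10.75, 11.03 and 10.45, and for Elf5 and Sox10 the other mixed tumors stayed at or below 6.63. None of Aqp5, Wfdc18, Elf5 and Sox10 passed the test against skin, where 1 high tumor stood among 4. Krt8 (3.47, limma adjusted p = 0.00673) and Edar (2.85, limma adjusted p = 0.00703) did pass, with all 4 mixed tumors above all skin samples. Edar, at 6.87 to 10.45 in the mixed tumors, was also above all other tumors, 4.71 to 5.51.

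The other tumors had features of their own. Lgr5, a receptor of hair follicle stem cells, was 13.20 in tumor 3, 4.94 in tumor 5, 8.44 in tumor 7 and 4.56 in RbΔEC tumor 4, and 6.93 to 8.55 in skin, so that tumor 3 was above all samples of the series. Lhx2, a factor of the same cells, was highest in tumor 3 (11.55) and lowest in tumor 5 (3.21). Gprc6a, an amino acid receptor gene, stood at 13.10 in RbΔEC tumor 4, with all other samples between 4.61 and 5.08. Coch and Rcan2 were also highest there, at 12.11 and 12.25. Of the follicle list as a whole, 1 of 13 follicle stem cell genes was higher than in skin, with 3 lower and 9 not past the test, where 20.1% of all genes were called each way, and 3 higher and 4 lower without tumor 5.

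**Figure D2:**
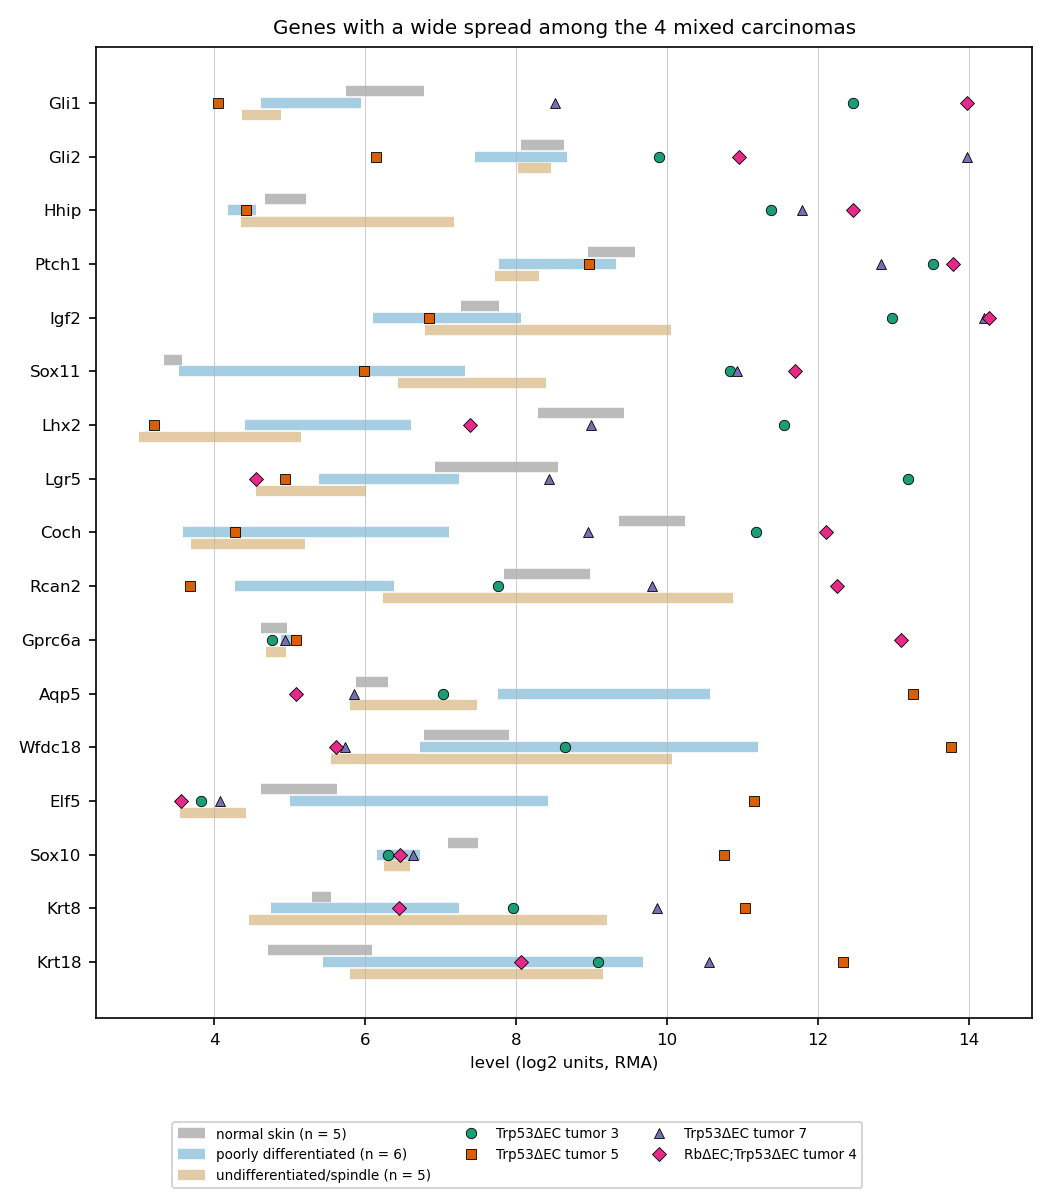
Levels of 17 genes that spread widely among the 4 mixed carcinomas, in log2 units (x axis), with 1 symbol per mixed tumor and bars from the lowest to the highest sample of the other groups. Tumor 5 stands apart to the left for Gli1 (4.04), Gli2, Hhip, Ptch1 and Igf2 and to the right for Aqp5 (13.26), Wfdc18, Elf5, Sox10 and Krt8, and RbΔEC tumor 4 stands alone for Gprc6a (13.10).

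The mixed tumors were not simply intermediate between the other grades. In a fit over all 15 tumors, 1849 genes were higher (10.2%) and 1704 lower (9.37%) than in poorly differentiated tumors, and 1166 were higher (6.41%) and 1400 lower (7.7%) than in undifferentiated/spindle tumors. In 599 genes (3.29%) the mixed tumors were higher than both other grades and in 462 (2.54%) lower than both. Only 46 (0.253%) were below the poorly differentiated and above the undifferentiated/spindle tumors, and 29 (0.159%) the reverse, although a gene that lies between 2 groups is harder to call against both. Leaving out tumor 7 lowered the first of these counts to 20, and leaving out RbΔEC tumor 4 lowered the second to 10. In 354 genes (1.95%) all 4 mixed tumors lay above all 11 others and in 362 (1.99%) below. Without tumor 3 the counts were 585 and 616, and without tumor 5 769 and 633.

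Hbegf, Ereg, Fosl1 and Uox differed most among the 362 genes for which all mixed tumors lay below all others. Hbegf, an EGF receptor ligand, was 7.74 in tumor 3, 7.38 in tumor 5, 7.03 in tumor 7 and 6.78 in RbΔEC tumor 4, and its lowest, median and highest levels were 10.67, 11.16 and 12.0035 in poorly differentiated tumors and its levels 10.82, 9.42, 10.45, 9.38 and 8.76 in undifferentiated/spindle tumors. All mixed tumors lay under both groups and overlapped skin, 6.12 to 7.49 (−3.93, SE 0.37, adjusted p = 9.95e-06 and −2.54, SE 0.39, adjusted p = 0.000965). Ereg, a further ligand of that receptor, was 8.26 in tumor 3, 4.05 in tumor 5, 5.66 in tumor 7 and 4.78 in RbΔEC tumor 4 against 8.51 to 11.52 in the other tumors, and Fosl1, an AP-1 subunit, 6.67 in tumor 3, 5.07 in tumor 5, 5.33 in tumor 7 and 5.03 in RbΔEC tumor 4 against 8.05 to 10.07. Uox, which oxidizes urate, was flat at 4.82 to 5.15 against 6.05 to 11.003. Of 17 immediate early genes 9 were lower than in skin (20.1% of all genes) and 1 was higher, and 11 were lower than in poorly differentiated tumors (9.37% of all genes), which became 7 without tumor 7 and 6 with the unequal-variance test. Bcl2, a survival gene chosen after its values were seen, was above all other tumors at 8.74 to 13.21 against 6.91 to 7.91 (3.38, SE 0.61, adjusted p = 0.00180 against poorly differentiated tumors). Skin was 8.18 to 8.76, with tumor 3 (8.74) inside that range (2.25, limma adjusted p = 0.0436). The call against skin was lost with the median of its probesets (limma adjusted p = 0.0638) and without RbΔEC tumor 4 (0.0926). It was also lost without any 1 skin sample (0.0683 to 0.0841).

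**Figure D3:**
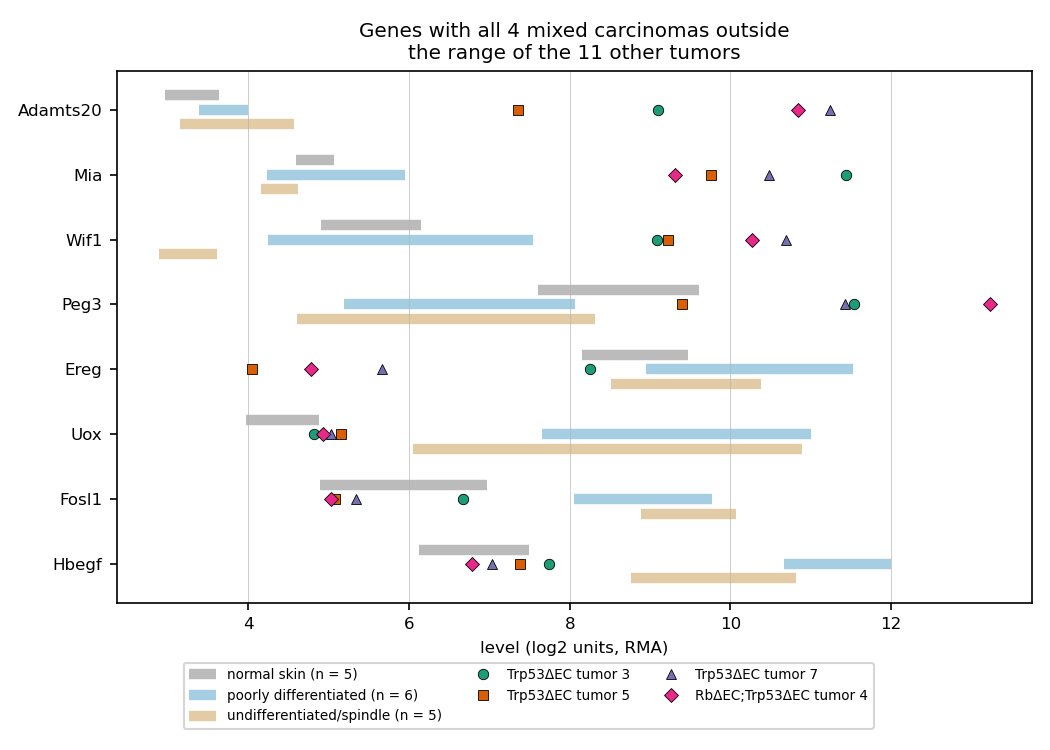
Levels in log2 units (x axis) of the 8 genes with the largest differences among those for which all 4 mixed carcinomas lay outside the range of the 11 other tumors, with 1 symbol per mixed tumor and bars from the lowest to the highest sample of each other group. Adamts20, Mia, Wif1 and Peg3 lie to the right of both tumor bars and Ereg, Uox, Fosl1 and Hbegf to the left, with the lowest Adamts20 at 7.36 in tumor 5.

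A place between the grades was computed from 4106 genes that differed between poorly differentiated and undifferentiated/spindle tumors in a fit without the mixed tumors, with 0 at the poorly differentiated mean and 1 at the undifferentiated/spindle mean. The median place was 0.565 for tumor 3, 0.397 for tumor 5, 0.634 for tumor 7 and 0.783 for RbΔEC tumor 4. The quartiles were wide, from 0.108 to 1.02 in tumor 3, so that single genes lay at either end. For the 1802 genes lower in undifferentiated/spindle than in poorly differentiated tumors the median places were 0.687, 0.579, 0.710 and 0.952. For the 2304 genes higher in undifferentiated/spindle tumors they were smaller (0.491, 0.267, 0.545 and 0.609). Over all genes the mean Pearson distance (1 minus the correlation) of the mixed tumors was 0.0798 to each other, 0.0983 to undifferentiated/spindle, 0.121 to poorly differentiated tumors and 0.154 to skin. They were nearer to undifferentiated/spindle tumors by 0.0226, with an exact two-sided permutation p of 0.00217 over the 11 other tumors, the smallest that 462 regroupings allow. On leaving out 1 mixed tumor the value ran from 0.0133 to 0.0309, with an exact permutation p of 0.00866 without RbΔEC tumor 4 and 0.00217 without any other mixed tumor, and no other tumor was left out. Tumor 5 alone was about as far from undifferentiated/spindle (0.114) as from poorly differentiated tumors (0.111). The mixed group was also the loosest, since the mean distance within poorly differentiated tumors was 0.0425, within undifferentiated/spindle tumors 0.0332 and within skin 0.0131.

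**Figure D4:**
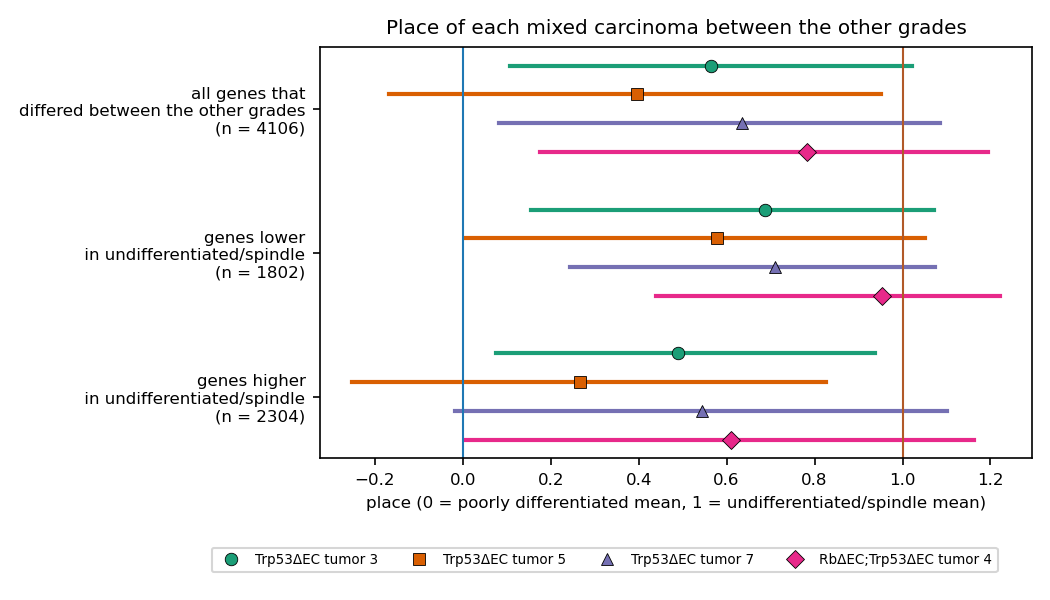
Median place (symbol) and quartiles (line) of each mixed carcinoma between the poorly differentiated mean (0) and the undifferentiated/spindle mean (1) on the x axis, for all 4106 genes and for those lower or higher in undifferentiated/spindle tumors. RbΔEC tumor 4 lies nearest to 1, at 0.952 for the lower genes, and tumor 5 nearest to 0, at 0.267 for the higher genes.

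Of the leukocyte lists, those of T and NK cells, macrophages and dendritic cells held the most genes below skin. Of 16 genes of T and NK cells 13 were lower than in skin (median −0.93, where 20.1% of all genes were lower), 9 lower than in poorly differentiated and 7 lower than in undifferentiated/spindle tumors, and none was higher in any comparison. With the unequal-variance test 3 were lower than in undifferentiated/spindle tumors. Their mean level was 5.11, 5.08, 5.06 and 5.05 in tumors 3, 5 and 7 and RbΔEC tumor 4, against 6.01 to 6.44 in skin, 5.51 to 6.56 in poorly differentiated and 5.48 to 6.52 in undifferentiated/spindle tumors, so that the 4 were below all other samples. Cd2, a T cell adhesion receptor gene, was 3.90 in tumor 3, 3.98 in tumor 5, 3.93 in tumor 7 and 3.95 in RbΔEC tumor 4, and 5.39, 6.41, 6.61, 5.84 and 7.10 in skin. The 4 tumors were alike and below every other sample of the series (log2 difference −2.33, SE 0.31, adjusted p = 0.000345 against skin and −1.55, SE 0.33, adjusted p = 0.00515 against poorly differentiated tumors). Cd3g, a subunit of the T cell receptor complex (−3.21), and Klrd1, an NK receptor gene (−2.40), also fell against skin. Most of these genes are dim on the array, and with genes under the median level left out 1 T and NK gene was still lower than in skin.

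Macrophage genes were lower than in undifferentiated/spindle tumors for 15 of 21 (median −2.62, where 7.7% of all genes were lower) and lower than in skin for 12, with 1 higher. Csf1r, the receptor for macrophage growth factor, was 10.79 in tumor 3, 10.41 in tumor 5, 10.10 in tumor 7 and 9.47 in RbΔEC tumor 4, 12.34, 12.52, 12.81, 12.30 and 12.88 in skin and 13.04, 12.87, 13.15, 12.65 and 12.39 in undifferentiated/spindle tumors. The mixed tumors lay below both groups and overlapped the poorly differentiated tumors, 9.77 to 12.36 (−2.38, SE 0.26, adjusted p = 0.000109 and −2.63, SE 0.42, adjusted p = 0.00121). The scavenger receptor gene Cd163 fell against skin by 5.39 and the monocyte receptor gene Ccr2 by 3.67. Of 11 genes of Langerhans and dendritic cells 7 were lower than in skin (4 by the unequal-variance test), led by Cd207, the langerin of Langerhans cells (−3.44, SE 0.11, adjusted p = 2.01e-07). Of 22 cytokine and chemokine genes 17 were lower than in poorly differentiated tumors (median −2.81, where 9.37% of all genes were lower) and none was higher. The unequal-variance test left 5 of these calls, and 6 were lower without dim genes. Examples are the neutrophil attractant Cxcl5 (−3.85) and Ptgs2, which makes prostaglandins (−3.75). Against skin 6 cytokine genes were higher and 3 lower, where 20.1% of all genes were called each way, and 2 to 3 were higher on leaving out any 1 of skin samples 2 to 5. With the unequal-variance test none was higher and 1 was lower. The alarmin gene Il33 was lower than in all 3 other groups (−2.44, −3.14 and −4.43). Of 18 interferon response genes 3 were lower than in skin, a share near the 20.1% of all genes, and 9 without tumor 3 or without skin sample 1. Against undifferentiated/spindle tumors 4 of them were lower and none was higher (median −1.93, where 7.7% of all genes were lower). At an unadjusted p under 0.05, 17 were lower, as were 2677 of all 18193 genes, and the unequal-variance test left 1 lower.

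**Figure D5:**
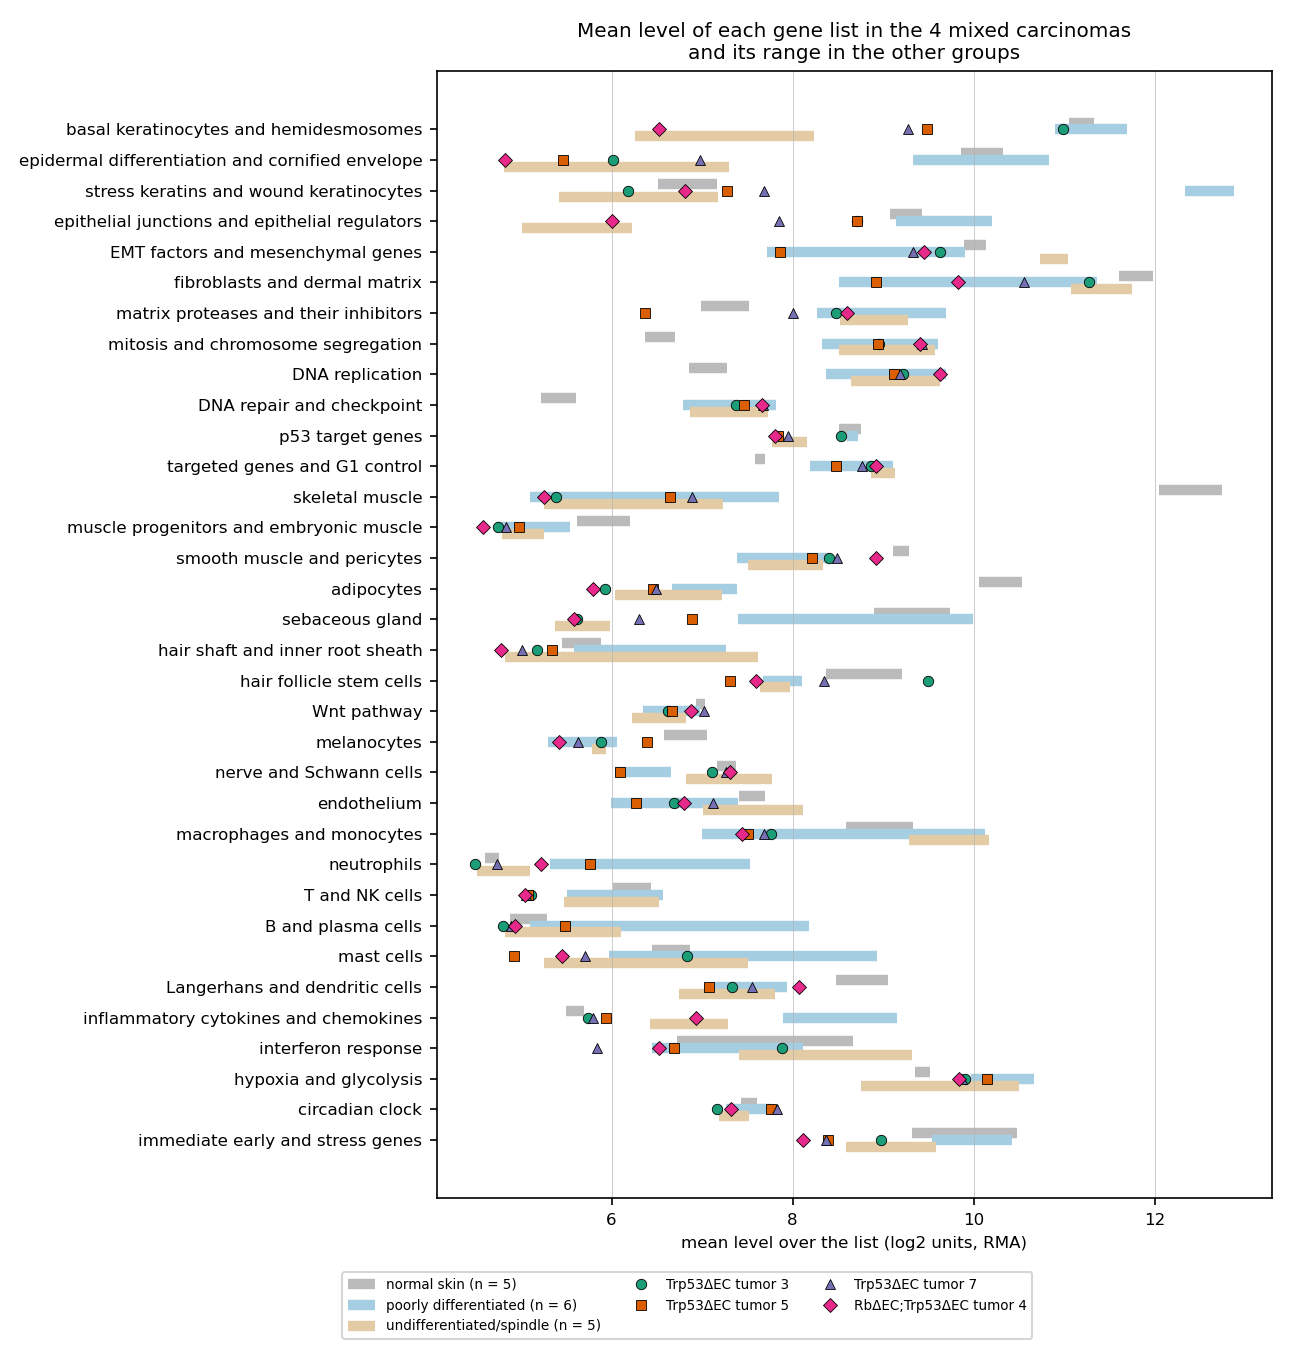
Mean level over each gene list in log2 units (x axis), with 1 symbol for each of the 4 mixed carcinomas and a bar from the lowest to the highest sample of normal skin, poorly differentiated and undifferentiated/spindle tumors. The mitosis symbols (8.94 to 9.43) lie right of the skin bar (6.37 to 6.70), the muscle and fat symbols far left of it, and the T and NK cell symbols (5.05 to 5.11) left of all 3 bars.

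Many fibroblast and vessel genes were lower than in skin, and few of those passed against poorly differentiated tumors. Of all genes 20.1% were lower than in skin, 9.37% lower than in poorly differentiated and 7.7% lower than in undifferentiated/spindle tumors. Of 19 fibroblast and matrix genes 11 were lower than in skin (median −1.61, with 2 by the unequal-variance test), 1 was lower than in poorly differentiated tumors, and 5 were lower and 1 higher than in undifferentiated/spindle tumors, and 2 to 3 were lower on leaving out tumor 5, tumor 7, RbΔEC tumor 4 or any 1 undifferentiated/spindle tumor but Trp53ΔEC tumor 1 and none with the unequal-variance test. The matrix proteoglycan gene Dcn was 12.49 in tumor 3, 7.55 in tumor 5, 9.09 in tumor 7 and 6.74 in RbΔEC tumor 4 against 13.48 to 13.90 in skin. Of 16 genes of matrix proteases and their inhibitors 5 were higher and 1 lower than in skin (1 higher and none lower by the unequal-variance test). Against poorly differentiated tumors 6 of these protease and inhibitor genes were lower and none was higher (median −0.90, with 1 lower by the unequal-variance test). Of 16 mesenchymal genes and factors of epithelial to mesenchymal transition none was higher than in any other group, but without tumor 5 there were 2 higher than in skin and 2 higher than in poorly differentiated tumors. Against undifferentiated/spindle tumors 8 were lower (median −1.78, with 2 by the unequal-variance test), among them S100a4 (−3.80), Dab2 (−2.47) and Zeb2 (−2.24). The neurofilament genes Nefl (−4.77) and Nefm (−4.47) and the lymphatic factor gene Ccbe1 (−4.50) were lower as well. Cd24a, a surface glycoprotein gene of epithelial progenitors, at 11.25 to 13.38 against 6.69 to 7.64 (5.49, SE 0.41, adjusted p = 8.96e-06), the potassium channel gene Kcnk1 (5.24) and the glypican gene Gpc3 (5.62) were higher. Of 20 endothelial genes 13 were lower than in skin and 10 lower than in undifferentiated/spindle tumors (6 without RbΔEC tumor 4 or without Trp53ΔEC tumor 2, and 3 by the unequal-variance test), and none passed limma against poorly differentiated tumors, with 1 higher and 3 lower at an unadjusted p under 0.05. Lyve1, a lymphatic and macrophage receptor gene, was 5.45 in tumor 3, 5.37 in tumor 5, 5.74 in tumor 7 and 4.15 in RbΔEC tumor 4 against 9.43 to 11.34 in skin and was below all other tumors. Vegfa, the vessel growth factor, rose against skin by 2.25 (adjusted p = 5.70e-05), and 8 of 21 genes of hypoxia and glycolysis were higher, where 20.1% of all genes were, and 2 lower. The unequal-variance test left 5 of them higher. Housekeeping genes were 3 higher (1 without skin sample 3 or 5) and 2 lower of 9, with a median of 0.08, and none of 8 neutrophil genes passed against skin (1 higher and none lower at an unadjusted p under 0.05).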

How the data were processed

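RNA of 20 whole-tissue samples was measured on 1 Affymetrix array each. The authors deposited log2 values after RMA (background correction, quantile normalization and probeset summary, version not given in the sources used here), which ran from 2.337 to 14.718. Quantile normalization gives arrays a common distribution, so shifts shared by most genes are not seen. Of 45101 probesets 64 controls were left out. Of the other 45037, 34945 carried 1 gene symbol, 932 several and 9160 none in the platform annotation, and symbols were updated through RefSeq except for 204 probesets whose gene ID was not in that table. Each of 18193 genes was read from 1 probeset, that of the highest mean level across the arrays.

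Samples were grouped by the histology in the labels. Differences were tested with limma (lmFit and eBayes, version 3.58.1, R 4.3.3), on mixed tumors and skin for that comparison and on all 15 tumors for the comparisons with other grades, with Benjamini-Hochberg adjustment over all genes and a call at an adjusted p under 0.05. Other steps ran in Python (3.11.15) on pandas 2.3.3, numpy 2.4.6, matplotlib 3.10.9 and scipy 1.17.1, and the limma scripts were tested on simulated data. Nothing in the labels says that the tumors are from separate mice. The p-values therefore measure only the spread among these samples, and their number (4, 5, 6 and 5) limits the precision.

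The genes named were the 12 largest differences each way from skin among called genes whose groups did not overlap, up to 4 members of each list, the 6 largest each way against each other grade, the 10 with the widest range among mixed tumors, the 4 each way furthest outside all other tumors, Rb1, and others stated as chosen after their values were seen. Members and gene lists were chosen with earlier results of these data known. Promoters from RefSeq matched 29 of 35 mitosis, 22 of 26 differentiation and 25 of 36 skeletal muscle genes, some with more than 1 start. Alternatives changed the probeset rule, the centring, the samples in the fit, the genotype, the eBayes settings and the filter on dim genes. Without dim genes 9097 genes were tested, so a list can have fewer members there. The alternatives also changed the threshold, the test (an unequal-variance t-test) and the replicate block, and left out each sample in turn. A fit over probesets was added after seeing the data.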

Additional observations from a re-analysis of the deposited data

Results flagged for a closer look

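Among 296 groups of values tested for a sample far from the others (112 genes and 36 list means, each in mixed tumors and in skin), 27 values stood apart. For groups not chosen by their values, chance gives about 1 in 20. Some genes were named for a wide range among the mixed tumors or chosen after their values were seen. That rate therefore does not apply to them, and no excess over chance can be read from the count. The values that stood apart are log2 levels. In tumor 5 these were Elf5 (11.15) and Sox10 (10.75) above the other mixed tumors, and Hhip (4.43), Mmp13 (5.86) and Sox11 (5.98) below them, together with the means of the mesenchymal genes (7.86) and of the nerve and Schwann cell genes (6.10). In tumor 7 the differentiation and wound genes Dsc1 (7.36), Krt77 (8.73), Sprr1b (6.42) and Sprr2d (6.57) stood above the others. Tumor 3 stood below the other mixed tumors for Cd24a (11.25) and apart for Nefm (5.71). RbΔEC tumor 4 stood above for Gprc6a (13.10) and for the mean of the cytokine and chemokine genes (6.94).

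In skin, sample 1 stood apart for Fosl1 (6.97) and for the means of macrophage genes (8.59) and of cytokine genes (5.69). Skin sample 3 stood apart for Gprc6a (4.61) and for the means of mast cell genes (6.45) and housekeeping genes (11.02). Skin sample 4 stood apart for Il33 (8.57), Krt8 (5.55), Nefm (3.73), Rcan2 (7.84), Rrm2 (9.003) and the mean of basal keratinocyte genes (11.32).

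The difference from skin also differed between grades in limma's contrast of the tumors, which share the skin samples and so compare the tumors directly. Mixed minus poorly differentiated was 5.98 for Adamts20, 5.63 for Hhip, 5.41 for Mia, 5.18 for Igf2, 5.09 for Peg3 and 4.87 for Sox11. It was −8.18 for Defb3, −8.13 for Sprr1b, −7.98 for Sprr2f, −7.85 for Sprr2h, −7.70 for Krt6b and −7.33 for Sprr2d, and the 12 adjusted p-values ran from 6.06e-08 (Sprr2d) to 0.00801 (Igf2). Mixed minus undifferentiated/spindle was 6.66 for Wif1, 5.89 for Adamts20, 5.86 for Mia, 5.62 for Gpc3, 5.49 for Cd24a and 5.24 for Kcnk1. It was −4.77 for Nefl, −4.60 for Ifi209, −4.51 for Dkk2, −4.50 for Ccbe1, −4.47 for Nefm and −4.43 for Il33, with adjusted p from 4.46e-06 (Mia) to 0.0101 (Il33).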

How the results depend on the processing

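Against skin, calls numbered 9235 higher and 6949 lower over 45037 probesets, and 2167 higher of 18193 genes with an unequal-variance test. Every fit without dim genes tested only 9097 genes, so its counts do not compare directly with those over 18193. Without dim genes 2538 of 9097 genes were higher and 1917 lower than in skin. At an adjusted p under 0.01 with a log2 difference of at least 1, 1496 of 18193 genes were higher and 1689 lower. Against poorly differentiated tumors 377 were higher and 493 lower with the unequal-variance test and 1181 higher without dim genes. Against undifferentiated/spindle tumors these were 144, 383 and 711. Genes higher than both grades were 343 in fits with 2 groups, 59 with the unequal-variance test and 306 without dim genes, and genes lower than both were 80 with the unequal-variance test. Genes below poorly differentiated and above undifferentiated/spindle tumors were 23 in fits with 2 groups and 1 with the unequal-variance test, and the reverse 7, 2 and, with genotype as covariate, 17. The place of RbΔEC tumor 4 was 0.950 over genes differing by at least 2.

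Samples with the same number in their titles did not deviate together (correlations of −0.09 to 0.04), so the numbers do not pair them. With the number as a replicate block, 1324 genes were higher and 1499 lower than in skin, 737 and 825 against poorly differentiated, 276 and 440 against undifferentiated/spindle tumors, and 94 higher than both, 165 lower than both, 14 below poorly differentiated and above undifferentiated/spindle and 9 the reverse.

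On leaving out 1 sample, genes higher and lower than in skin ran from 3056 to 4002 and from 3172 to 3987, against poorly differentiated tumors from 1393 to 2131 and from 1306 to 1751, and against undifferentiated/spindle tumors from 850 to 1318 and from 1082 to 1321. Genes with all mixed tumors above the 11 others ran from 459 to 769 and below from 482 to 633, where fewer mixed tumors make this easier. Genes higher than both grades ran from 410 to 848, lower than both from 309 to 469, and between them from 20 to 57 and from 10 to 27.

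Of 4075 values of the named genes under an alternative, 3692 kept direction and call, 316 lost the call and 38 gained it. Over the 3 comparisons the unequal-variance test removed 82 of these calls and the replicate block 75, and no other setting more than 20. The pericyte gene Rgs5 changed sign against skin with the median of its probesets (0.22, adjusted p = 0.612), and the cause was not tested. Of 610 list medians 575 moved by less than the spread between replicates. Some settings change only the error or the test, so their list medians could not move. These were the unequal-variance test, the other eBayes settings and the fit with all samples. The fit with only Trp53ΔEC mixed tumors equals that without the RbΔEC mixed tumor, so its values were counted again, also among the 4075. The 575 therefore overstates how stable the medians were. The array gives no signal over background, so dim genes such as those of T and NK cells carry the least certain values.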
